A study of Homo sapiens with 112 samples.

Results

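LAPC4 cells treated with the synthetic androgen R1881 plus the low dose of darolutamide for 22 h were compared with LAPC4 cells treated with R1881 alone for the same time. The members are the 5 libraries labelled with R1881 and 500 nM darolutamide at 22 h and the 10 libraries labelled with R1881 and the vehicle DMSO at 22 h, which makes 15 libraries of 57 from LAPC4 cells and 55 from VCaP cells. LAPC4 is an established human prostate cancer cell line. Every group had first been starved of hormone over 2 days with 10% charcoal-stripped serum. R1881 was given at 1 nM, and darolutamide was added to it at 500 nM or at 2 µM. Further LAPC4 groups used beside the main comparison were DMSO at 22 h (7 libraries), R1881 plus 2 µM darolutamide at 22 h (5), R1881 at 8 h (10) and R1881 plus 500 nM darolutamide at 8 h (5). In VCaP, another prostate cancer line, 4 libraries with 500 nM darolutamide and 9 with R1881 alone at 22 h were used. A cell line of 1 origin grown in culture holds no stroma and no other epithelium, and every value here is a messenger RNA level.

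Darolutamide binds the ligand-binding pocket of the androgen receptor and competes with androgen for it. The receptor with its agonist moves to the nucleus, binds DNA elements built from inverted half-sites, and switches on genes of prostate secretion, lipid supply and growth, while a smaller group of genes is held down by androgen. A fall with darolutamide on top of R1881 is therefore read against the rise with R1881, and a rise against the fall. Both comparisons hold the same R1881 libraries, so an error in that group shifts their fold changes in opposite directions. Opposite signs are thus not independent, and the values are given side by side only.

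The 5 libraries with 500 nM darolutamide held 13774432 to 23373889 counted reads (median 19313067) and the 10 with R1881 held 15874797 to 23180161 (median 18842246.5). Luminal markers were expressed in all of them, with 3586 to 5851 reads for EPCAM and 14666 to 25752 for FOXA1 in the 500 nM libraries. ERG, which VCaP cells express from a fusion gene, had 0 to 1 reads in the LAPC4 libraries and 1578 to 21554 in the VCaP libraries. Leukocyte markers summed to at most 0.48 CPM (the reads of a gene scaled to a common library size) in any library of both groups. The dependence of log2 CPM on GC content varied within both groups, from -0.6341 to -0.3119 log2 units per 10% GC with 500 nM and from -0.6933 to -0.3166 with R1881. Replicate 1 with 500 nM, at -0.3119, stood at the edge of its group. The R1881 group also holds replicate numbers 6 to 10, which the darolutamide group does not. The main comparison was therefore also computed against R1881 replicates 1 to 5 and against 6 to 10 alone. For the differences between times and between cell lines, only the fit limited to R1881 numbers 1 to 5 was run. Whether those differences hold against numbers 6 to 10 alone was not tested.

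With 500 nM darolutamide, 1072 of the 18204 genes tested (5.89%) were called at an adjusted p below 0.05 in the quasi-likelihood test of edgeR, with p values adjusted after Benjamini and Hochberg. Of these, 584 (3.21%) were lower and 488 (2.68%) were higher than with R1881 alone. The changes were small for most genes, with a median log2 fold change of -0.243 among those called lower and 0.239 among those called higher, and 571 of the called genes moved by less than 0.25. The median over all genes tested was 0.0055. An absolute log2 fold change above 1 was passed by 39 genes (0.214%), of which 32 fell and 7 rose. At a limit of 0.5, 127 fell and 69 rose. Against R1881 replicates 1 to 5, 692 genes were called lower and 438 higher, and against replicates 6 to 10, 475 and 445. Of the 1072 genes of the main comparison, 783 were called again against replicates 1 to 5 and 761 against 6 to 10. The libraries of the groups did not overlap in CPM for 342 genes that were lower (1.88% of the genes tested) and 209 that were higher (1.15%). Protein-coding genes made up 68.6% of the genes tested, 89.0% of those called lower and 88.7% of those called higher.

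**Figure D1:**
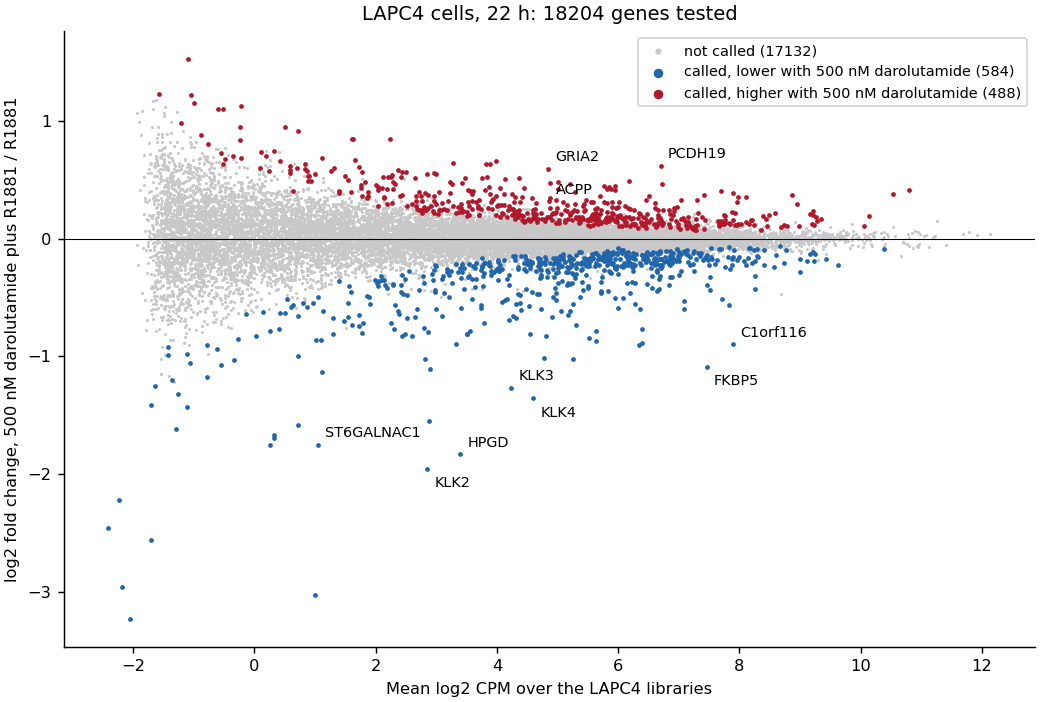
Each point is a gene, with its mean log2 CPM over the LAPC4 libraries on the x axis and its log2 fold change of 500 nM darolutamide plus R1881 against R1881 at 22 h on the y axis. Blue and red points are the 584 genes called lower and the 488 called higher, and the deepest falls lie further from 0 than the highest rises.

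The largest falls among genes above the median expression were those of KLK4 and KLK3, both secretory proteins of the prostate. KLK2, KLK3 and KLK4 are kallikreins, serine proteases that luminal cells release into the seminal fluid, and KLK3 is prostate-specific antigen. KLK3 (chromosome 19, 50854915 to 50860764, GRCh38) read 20.7, 18, 18.2, 16.8 and 19.5 CPM in the 5 libraries with 500 nM, against 35.8, 45.2 and 53.2 (lowest, median and highest) with R1881. Every darolutamide library lay below every R1881 library, and the log2 fold change was -1.27 (standard error 0.0887, adjusted p = 8.04e-17). KLK2 (chromosome 19, 50861568 to 50880567) read 7.03, 7.17, 6.60, 6.58 and 8.14 CPM with 500 nM, against 22.5, 27.7 and 33.8 with R1881. The groups were again separate, and the level was 3.88-fold lower (log2 fold change -1.95, standard error 0.123, adjusted p = 1.31e-18). KLK4 (chromosome 19, 50906351 to 50911395) read 28.8, 21.4, 23.6, 24.9 and 26.8 CPM, against 49.7, 61.1 and 85.2. Its R1881 libraries were the most spread of the 3 genes, none reached down to the darolutamide libraries, and the log2 fold change was -1.36 (standard error 0.143, adjusted p = 1.07e-10). These genes are near-identical in parts, so reads may have been divided between them by the authors' counting.

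KLK3 and KLK2 also share most of the sequence before their start sites, and these windows are shown because androgen receptor binding there is textbook knowledge. Each is the 250 bases before the start in RefSeq (GRCh38.p14, plus strand), KLK3 at chr19:50854665-50854914 and KLK2 at chr19:50873189-50873438. Capitals mark the best match to a 15-base inverted repeat, the half-site AGAACA and its reverse complement TGTTCT around a spacer of 3 bases, which starts 170 bases before the start in KLK3 and 176 bases before it in KLK2.
KLK3: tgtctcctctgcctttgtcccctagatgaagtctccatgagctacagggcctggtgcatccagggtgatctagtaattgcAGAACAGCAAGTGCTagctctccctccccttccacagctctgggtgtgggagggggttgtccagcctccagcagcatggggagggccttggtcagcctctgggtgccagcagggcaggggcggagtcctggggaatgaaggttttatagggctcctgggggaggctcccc
KLK2: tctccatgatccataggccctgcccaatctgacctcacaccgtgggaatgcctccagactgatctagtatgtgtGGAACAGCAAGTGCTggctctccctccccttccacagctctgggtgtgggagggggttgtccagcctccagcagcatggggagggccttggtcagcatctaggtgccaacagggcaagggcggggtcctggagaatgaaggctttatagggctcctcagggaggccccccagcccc
The matches hold 10 of the 12 fixed letters of the repeat in KLK3 and 9 in KLK2, and 14 of the 15 bases are the same in both genes.

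Of the 9 androgen-induced secretory proteins listed, 8 were tested. Of these, 6 fell and 1 rose, with a median log2 fold change of -0.71. Over all genes tested 5.89% were called, and the counts of this and the other lists are read beside that share. All lists were chosen with earlier results of these data known, so their counts are not independent of these data. Beside the 3 kallikreins, KLK15 fell by 0.99, AZGP1, a zinc-binding glycoprotein, by 0.43 and TMPRSS2, a serine protease of the luminal surface, by 0.31 on the log2 scale (adjusted p = 0.0348, 1.95e-06 and 1.38e-11). KLK15 was very low, at 0.289 to 0.477 CPM with 500 nM and 0.342 to 1.33 with R1881, and its groups overlapped. TMPRSS2 (chromosome 21, 41464300 to 41531116) read 138, 131, 135, 138 and 135 CPM with 500 nM and 159, 168 and 177 with R1881. Its groups were close but did not overlap. ACPP, the prostatic acid phosphatase (chromosome 3, 132317369 to 132368302), went the other way, with 28.1, 29.5, 30.9, 29.9 and 30.5 CPM against 21.1, 23.7 and 27.3. All 5 libraries lay above the R1881 group, and the log2 fold change was 0.32 (standard error 0.0516, adjusted p = 5.85e-06). MSMB, a secreted microseminoprotein, had a log2 fold change of 0.57 and was not called (adjusted p = 0.0636). Against R1881 replicates 1 to 5, against 6 to 10, and with DESeq2 alike, 5 members fell and 1 rose. R1881 alone moved ACPP by -0.47 and KLK2 by 2.53 on the log2 scale against DMSO, a comparison that called 2418 genes (13.3%), 1244 of them higher (6.83%) and 1174 lower (6.45%).

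Among 27 androgen-induced regulators, 15 fell and 0 rose (1 at an unadjusted p below 0.05, 0 with DESeq2), and the median log2 fold change was -0.28. FKBP5, a co-chaperone of steroid receptors (chromosome 6, 35573585 to 35728583), read 142, 157, 150, 152 and 151 CPM with 500 nM and 300, 321 and 336 with R1881. The R1881 libraries lay well above the darolutamide libraries, with no overlap, and the log2 fold change was -1.09 (standard error 0.0418, adjusted p = 2.65e-28). C1orf116, also known as specifically androgen-regulated gene protein (chromosome 1, 207018522 to 207032756), had the smallest adjusted p of these regulators. It read 273, 274, 281, 277 and 285 CPM, against 488, 520 and 532, which gave a log2 fold change of -0.90 (standard error 0.0292, adjusted p = 1.97e-31). HOMER2, a scaffold protein (chromosome 15, 82836946 to 82986153), read 24.7, 23.8, 26.2, 24.6 and 25 CPM, against 47.6, 50.1 and 55.1 (log2 fold change -1.01, standard error 0.0409, adjusted p = 1.50e-27). PMEPA1, a membrane protein that dampens TGF-beta signalling (chromosome 20, 57648392 to 57711536), read 46.8, 42.9, 45.2, 41.0 and 43.4 CPM, against 75.1, 80.0 and 85.1. For both genes every darolutamide library was below every R1881 library, and PMEPA1 fell by 0.87 on the log2 scale (standard error 0.0348, adjusted p = 1.05e-27).

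Other members of this list were SGK1 and ZBTB16. SGK1, a serum- and steroid-induced kinase, read 26.3, 28.4, 28.4, 29.4 and 25.2 CPM, against 40.8, 43.6 and 46.3 with R1881 (log2 fold change -0.66, standard error 0.0449, adjusted p = 2.29e-17). Its groups did not overlap. ZBTB16, a zinc finger repressor known as PLZF, read 10.2, 5.11, 8.95, 7.01 and 7.15 CPM, against 15.8, 22.3 and 28.1, and fell by 1.55 (adjusted p = 8.68e-12). Its lowest and highest darolutamide libraries differed more, relative to their level, than those of FKBP5. INPP4B, a phosphatase that restrains AKT signalling, fell by 0.56 (adjusted p = 6.81e-10) and IGF1R, the receptor for insulin-like growth factors, by 0.24 (adjusted p = 0.000332). IGF1R read 21.4, 23.6, 21.6, 21.1 and 19.9 CPM with 500 nM and 24.3, 25.4 and 27.0 with R1881, so that its groups were separated by a small gap.

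Of 32 androgen-induced membrane and metabolic proteins, 16 fell and 2 rose, with a median log2 fold change of -0.16. HPGD, which inactivates prostaglandins (chromosome 4, 174490175 to 174523154), read 9.98, 10.4, 10.9, 10.9 and 11.1 CPM with 500 nM and 33.0, 38.3 and 42.4 with R1881. No library of one group came near the other, and the level was 3.56-fold lower (log2 fold change -1.83, standard error 0.0694, adjusted p = 2.20e-28). RAB3B, a small GTPase of secretory vesicles, read 82.4, 98.1, 89.6, 94.7 and 85.7 CPM, against 131, 157 and 168 (log2 fold change -0.76, adjusted p = 4.57e-14). STEAP1, a cell surface protein of prostate tumours, read 15.4, 18.2, 15.9, 20.3 and 17.7 CPM, against 24.8, 27.6 and 31.4 (log2 fold change -0.67, adjusted p = 8.92e-14). SLC45A3, known as prostein (chromosome 1, 205657851 to 205680509), read 56.2, 42.2, 39.8, 42.5 and 47.8 CPM, against 73.0, 80.0 and 99.5 (log2 fold change -0.84, standard error 0.0950, adjusted p = 9.13e-10). Replicate 1 was its highest darolutamide library and still lay below the R1881 group. NCAPD3, a condensin subunit, fell by 0.26 (adjusted p = 3.49e-08). The members that rose were STEAP4, another metalloreductase, by 0.31 (adjusted p = 0.00103), and ADAMTS1, a secreted protease, by 0.10 (adjusted p = 0.0261). STEAP4 was lower with R1881 than with DMSO, with a log2 fold change of -0.51, and ADAMTS1 was at 0.07 and not called (adjusted p = 0.078). With R1881 replicates 1 to 5 as the control, 16 members fell and 0 rose (DESeq2 over all control libraries gave 16 and 2).

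**Figure D2:**
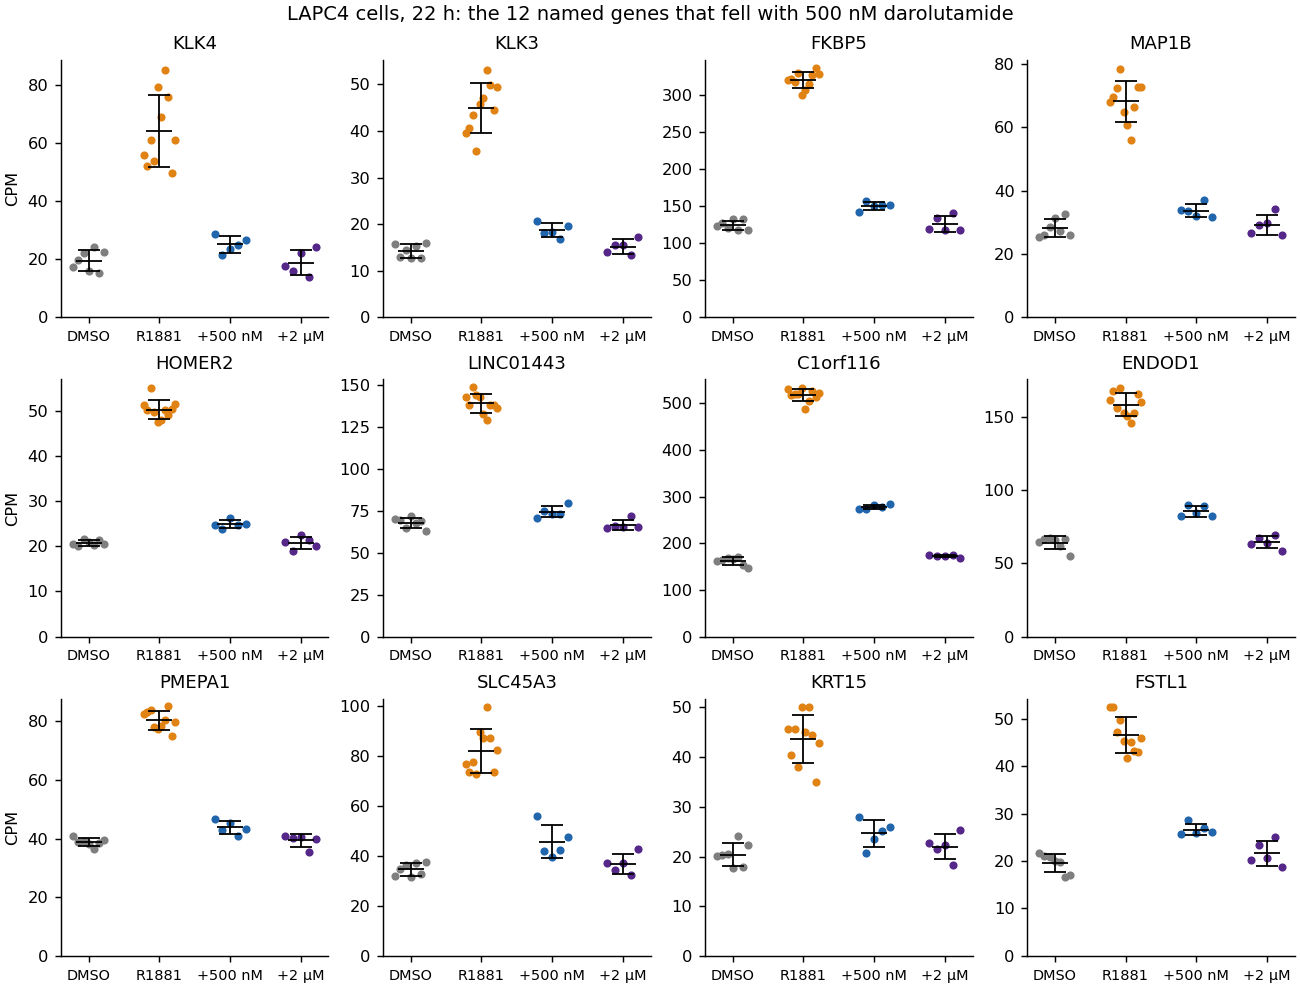
CPM on a linear y axis from 0 in each library of DMSO, R1881, R1881 plus 500 nM and R1881 plus 2 µM darolutamide at 22 h, for the 12 genes with the largest falls under the naming rule. Points are libraries and bars are the mean and SD (n = 7, 10, 5 and 5). The 500 nM points sit below all R1881 points in each panel, and in 8 of the 12 panels, such as C1orf116 at 273 to 285 CPM, they also sit above all DMSO points.

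The remaining genes with large falls had other functions. MAP1B, a microtubule-associated protein (chromosome 5, 72107234 to 72209565), read 34.0, 33.7, 32.0, 36.9 and 31.8 CPM, against 56.0, 68.9 and 78.6 with R1881 (log2 fold change -1.02, standard error 0.0712, adjusted p = 8.04e-17). LINC01443, a long non-coding RNA, read 70.9, 74.6, 73.1, 73.2 and 79.7 CPM, against 129, 138 and 149 (log2 fold change -0.91, standard error 0.0354, adjusted p = 4.80e-28). Neither gene showed overlap. ENDOD1, a protein with an endonuclease domain, fell by 0.89 (standard error 0.0450, adjusted p = 9.16e-23), and FSTL1, a secreted follistatin-like glycoprotein, by 0.81 (standard error 0.0751, adjusted p = 2.13e-12). KRT15, a keratin that is also a marker of basal epithelium, read 28.0, 20.7, 23.5, 25.2 and 25.9 CPM, against 35.0, 44.8 and 50.1, and fell by 0.83 (standard error 0.0959, adjusted p = 2.01e-09). The other basal markers were near 0, with 11 to 24 reads for KRT5 and 1 to 4 for TP63 in the darolutamide libraries. The summed basal markers were at 22.7 to 30.3 CPM with 500 nM and 36.2 to 51.8 with R1881, and KRT15 made up most of both.

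The naming rule takes only genes above the median expression, and deeper falls lay below it. CHRNA2, a subunit of nicotinic acetylcholine receptors, was chosen after its values were seen. It read 3.17, 1.70, 2.93, 2.53 and 2.61 CPM with 500 nM, against 16, 21.5 and 23.9 with R1881 and 0.451, 0.667 and 1.10 with DMSO. The log2 fold change against R1881 was -3.03 (standard error 0.156, adjusted p = 1.78e-22). Every darolutamide library lay above every DMSO library, by 1.73 on the log2 scale (standard error 0.205).

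Of the 12 genes with the largest rises, PCDH19 and GRIA2 came first. PCDH19, a protocadherin (chromosome X, 100291644 to 100410273), read 119, 118, 111, 115 and 102 CPM, against 68.7, 73.0 and 79.5 with R1881. All 5 libraries were above the R1881 group, and the log2 fold change was 0.62 (standard error 0.0428, adjusted p = 4.13e-17). GRIA2, a subunit of AMPA-type glutamate receptors (chromosome 4, 157204182 to 157387146), read 40.5, 43.9, 40.6, 42.1 and 40.3 CPM, against 24.1, 27.4 and 30.0 (log2 fold change 0.60, standard error 0.0493, adjusted p = 3.98e-14). FAM46A, a non-canonical poly(A) polymerase (chromosome 6, 81491439 to 81752774), read 75.9, 81.9, 86.0, 84.9 and 77.1 CPM, against 51.6, 58.4 and 62.5 (log2 fold change 0.49, standard error 0.0455, adjusted p = 2.24e-12). Neither gene overlapped between the groups. PABPC5, a poly(A)-binding protein, rose by 0.44 (adjusted p = 3.43e-11) and LRRC31, a leucine-rich repeat protein, by 0.47 (adjusted p = 4.68e-12).

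The other genes of the largest rises moved by similar amounts, and several of their values depended on which R1881 libraries served as control. PCDH10, another protocadherin, read 54.0, 46.4, 49.8, 48.7 and 46.2 CPM, against 37.3, 41.6, 39.1, 37.0 and 39.0 in R1881 replicates 1 to 5 and 33.0, 30.6, 33.9, 31.1 and 32.1 in replicates 6 to 10. Its log2 fold change was 0.47 (standard error 0.0556, adjusted p = 3.60e-09), 0.34 against the first 5 and 0.60 against the last 5. ADGRF1, an adhesion receptor, rose by 0.45 (adjusted p = 2.64e-06), or 0.29 and 0.61 against these subsets. For MMP16, a membrane-bound metalloprotease, the values were 0.45 (adjusted p = 9.66e-06), 0.30 and 0.59. In all 3 genes every library of replicates 1 to 5 was above every library of 6 to 10, and all 3 were called against either subset. VCAN, the proteoglycan versican, rose by 0.47 (adjusted p = 8.29e-07), FAT4, an atypical cadherin, by 0.48 (adjusted p = 9.50e-07) and SLC35F1, a solute carrier, by 0.51 (adjusted p = 5.19e-07). NKX1-2, a homeobox factor, rose by 0.51 (adjusted p = 2.46e-08), with 0.39 and 0.64 against the subsets. The larger value came from replicates 6 to 10 in 11 of the 12 genes, PCDH19 being the exception with 0.67 and 0.58.

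**Figure D3:**
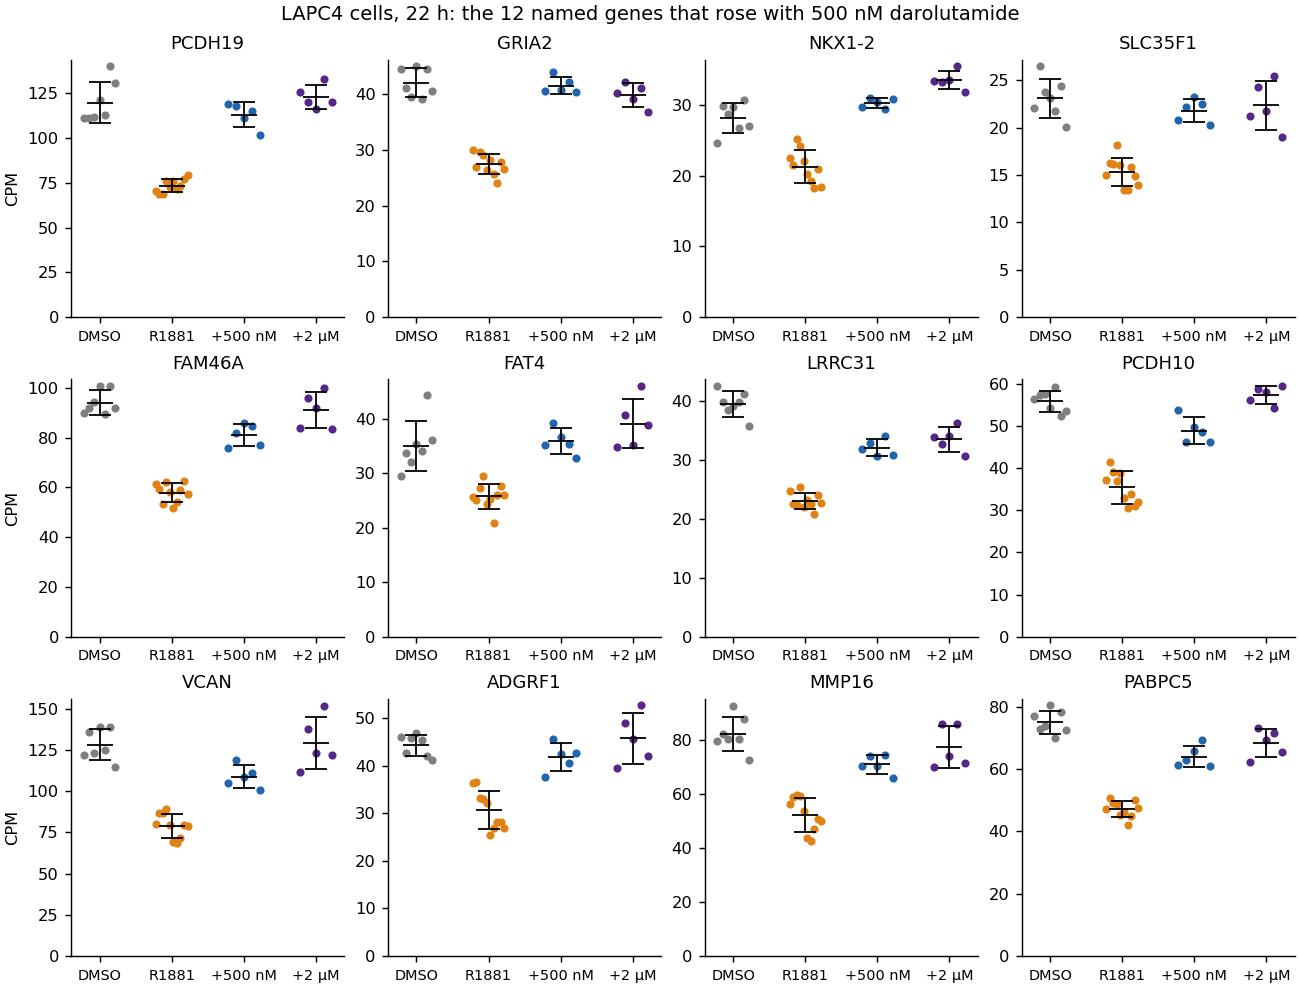
CPM on a linear y axis from 0 in each library of the same 4 treatments at 22 h, for the 12 genes with the largest rises under the naming rule. Points stand in the order of the replicate numbers, bars are the mean and SD (n = 7, 10, 5 and 5), and in each panel the 5 libraries with 500 nM lie above all 10 with R1881.

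Of 16 genes listed as repressed by androgen, 13 were tested, 6 rose, 2 fell, and the median log2 fold change was 0.30. The list includes PCDH19, LRRC31 and CA10, whose falls with R1881 in these libraries were already known, so that its direction is not independent of these data. FOLH1, the prostate-specific membrane antigen, read 543, 589, 587, 587 and 570 CPM with 500 nM and 449, 467 and 497 with R1881 (log2 fold change 0.30, adjusted p = 8.98e-10). CA10, a carbonic anhydrase-related protein, read 18.5, 18.8, 18, 19.6 and 18.2 CPM, against 12.2, 14.8 and 15.8 (log2 fold change 0.38, adjusted p = 8.13e-06). Both genes were higher in every darolutamide library. The glucuronosyltransferases, which inactivate androgens by conjugation, went in both directions. UGT2B15 and UGT2B17 rose by 0.36 and 0.32 (adjusted p = 0.000235 and 0.0219). UGT2B28 read 38.2, 43.6, 43.1, 40.4 and 38 CPM, against 58.8, 64.1 and 68.1, and fell by 0.65 (adjusted p = 4.57e-14), and UGT2B11 fell by 0.60 (adjusted p = 2.90e-14). With R1881 alone, UGT2B28 and UGT2B11 were 0.79 and 0.71 higher than with DMSO, and UGT2B15 was at -0.69. These genes are close paralogs, and reads may have been divided between them.

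Of 31 DNA replication genes, 12 fell by small amounts and 0 rose (0 at an unadjusted p below 0.05, 0 with DESeq2), with a median log2 fold change of -0.15, and 30 of the 31 fold changes were negative, against 47.7% of all genes tested. MCM4, a subunit of the replicative helicase, read 177, 182, 169, 184 and 185 CPM with 500 nM and 193, 204 and 214 with R1881 (log2 fold change -0.18, standard error 0.0284, adjusted p = 2.84e-06). MCM3 of the same complex read 129, 138, 137, 137 and 137 CPM, against 143, 151 and 159 (log2 fold change -0.15, standard error 0.0281, adjusted p = 6.52e-05). The groups were separate for both subunits, by a few CPM. GINS2, which activates the helicase, fell by 0.26 (adjusted p = 8.68e-05), with 13.4 to 15.6 CPM in the darolutamide libraries overlapping the lowest R1881 library at 15.5. MCM10, CDC45, RRM2, CDC6 and PCNA fell by 0.33, 0.31, 0.20, 0.16 and 0.15. The count was 13 without replicate 1 of the darolutamide group, 16 against R1881 replicates 1 to 5, 12 against replicates 6 to 10, 19 with a term for replicate numbers above 5, and 23 with the GC slope of each library as a covariate.

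Of 30 mitosis genes, 0 were called by edgeR or DESeq2, and 1 was lower at an unadjusted p below 0.05. Their log2 fold changes ran from -0.10 to 0.06. Among 10 tested CDK inhibitors and D-type cyclins, CCND1, the cyclin that drives entry into S phase, fell by 0.23 (adjusted p = 5.10e-07), and CCNG2, an atypical cyclin linked to growth arrest, rose by 0.16 (adjusted p = 0.00369). CCND1 read 206, 180, 186, 185 and 184 CPM with 500 nM and 199, 223 and 229 with R1881, and replicate 1 alone reached into the R1881 range. The CCNG2 call did not hold against R1881 replicates 6 to 10 (0.16, adjusted p = 0.0544).

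Of 20 ribosome biogenesis genes, 6 fell and 0 rose (0 at an unadjusted p below 0.05, 0 with DESeq2), the median log2 fold change was -0.13, and all 20 fold changes were negative, from -0.28 to -0.03. DKC1, the pseudouridine synthase dyskerin, read 105, 108, 111, 113 and 109 CPM, against 119, 126 and 133 (log2 fold change -0.21, adjusted p = 1.20e-06). NOLC1, a nucleolar chaperone, fell by 0.20 (adjusted p = 3.15e-06) and NOP56, a core protein of box C/D particles, by 0.18 (adjusted p = 8.74e-06). None of the 3 genes overlapped between the groups. The count was 5 against R1881 replicates 1 to 5, 6 against 6 to 10, and 14 with the GC slope as a covariate.

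Of 25 cholesterol genes, 5 fell and 0 rose (0 at an unadjusted p below 0.05, 0 with DESeq2), with a median log2 fold change of -0.07. HMGCS1, which makes the precursor of mevalonate, read 733, 786, 749, 775 and 720 CPM, against 802, 840 and 921 with R1881, and fell by 0.18 (adjusted p = 0.000879). ACAT2 fell by 0.14 (adjusted p = 0.00602) and was not called against R1881 replicates 1 to 5 (-0.11, adjusted p = 0.0689). With R1881 alone against DMSO, HMGCS1 was at 0.07 and not called (adjusted p = 0.206), and ACAT2 was at 0.14 (adjusted p = 0.00092). With the GC slope as a covariate 13 members of this list fell. Of 19 fatty acid synthesis genes tested, the elongases ELOVL7 and ELOVL5 and the carboxylase ACACA fell by 0.37, 0.24 and 0.17, while ACSL1, which activates fatty acids, rose by 0.11 (adjusted p = 0.000593). Of 15 hexosamine, sialic acid and O-glycan genes, 4 fell and 0 rose (1 at an unadjusted p below 0.05, 0 with DESeq2). ST6GALNAC1, the sialyltransferase of the sialyl-Tn antigen (chromosome 17, 76624761 to 76643786), read 2.21, 1.08, 1.61, 1.88 and 1.67 CPM, against 4.93, 5.69 and 6.62, which was 3.36-fold lower (log2 fold change -1.75, standard error 0.132, adjusted p = 1.35e-15). UAP1 and GALNT7 fell by 0.28 and 0.18, and no gene of these 3 overlapped between the groups. In polyamine metabolism, AMD1, which supplies the aminopropyl donor, fell by 0.17 (adjusted p = 0.00206), and SAT1, which acetylates polyamines for export, rose by 0.22 (adjusted p = 0.0131), of 10 genes tested. The SAT1 call was lost against R1881 replicates 6 to 10 (adjusted p = 0.143) and without darolutamide replicate 4 (adjusted p = 0.0729). With R1881 alone SAT1 was at -0.13 against DMSO and was not called (adjusted p = 0.123).

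Of 46 endoplasmic reticulum genes, SPCS3, a signal peptidase subunit, fell by 0.17 (adjusted p = 0.00930), and the median of the list was 0.0. HSPA5, the luminal chaperone, had a log2 fold change of 0.04 (standard error 0.0231, adjusted p = 0.427). Of 26 ATF4 targets and tRNA synthetases, YARS alone was called (3.85%, again below the share of all genes) and fell by 0.11 (adjusted p = 0.00871). The SPCS3 call did not hold against R1881 replicates 6 to 10 (adjusted p = 0.147), nor the YARS call against replicates 1 to 5 (adjusted p = 0.118) or without darolutamide replicate 4 (adjusted p = 0.0618). Of the 13 mitochondrially encoded proteins, 0 were called by edgeR or DESeq2 and 0 had an unadjusted p below 0.05. Of 7 aryl hydrocarbon receptor targets, 0 were called by either tool and 1 was lower at an unadjusted p below 0.05.

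Among 14 tested ERK feedback genes, the phosphatases DUSP6 and DUSP4 rose by 0.38 and 0.13 (adjusted p = 1.73e-06 and 0.000119). In a fit with the replicate number as a block, DUSP4 was at 0.08 and not called (adjusted p = 0.125). DUSP6 read 15.1, 15.2, 15.8, 14.8 and 14.2 CPM, against 10.0, 11.5 and 13.8, without overlap. Of 21 interferon and MHC class I genes tested, IFI44 alone was called (4.76%, below the 5.89% of all genes tested) and rose by 0.17 (adjusted p = 0.0104). This call was lost without replicate 2 (adjusted p = 0.0802) or 3 (adjusted p = 0.0663) of the darolutamide group and against R1881 replicates 6 to 10 (adjusted p = 0.168). The list gave 3 rises without darolutamide replicate 1. Only 3 of 11 neuroendocrine markers were expressed enough to be tested. LUM, a proteoglycan listed as a fibroblast marker, rose by 0.50 (adjusted p = 0.00474) at 2.21 to 3.39 CPM, and it was not called against R1881 replicates 1 to 5 (adjusted p = 0.0953). Of the other fibroblast markers, FAP had 0 reads in each darolutamide library and COL1A2 at most 3, and the summed list was at 3.08 to 4.68 CPM with 500 nM and 2.11 to 3.21 with R1881.

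**Figure D4:**
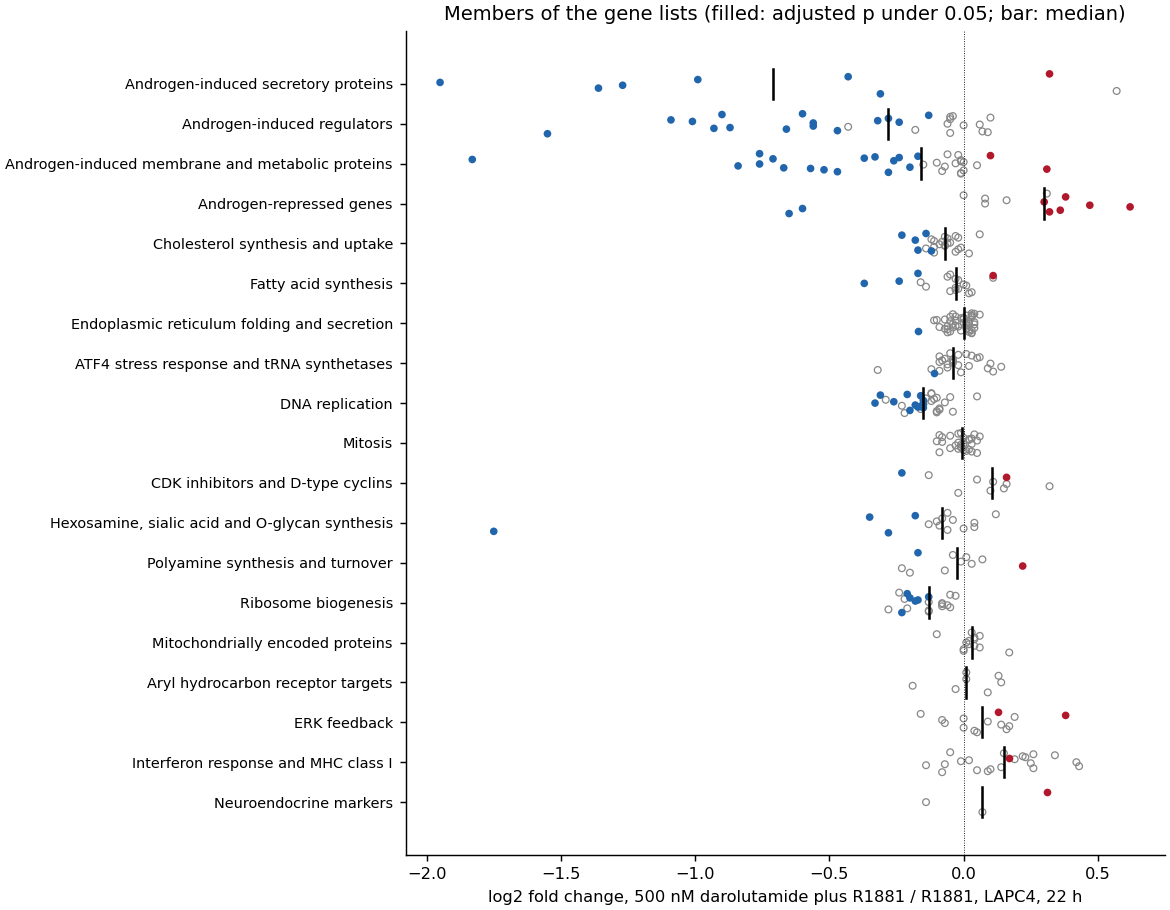
log2 fold changes of 500 nM darolutamide plus R1881 against R1881 at 22 h (x axis) for the tested members of 19 gene lists (y axis). Filled points were called, open points were not, and the bar is the median of a list, which lies at -0.71 for the secretory proteins, at -0.15 for DNA replication and at 0.30 for the androgen-repressed genes.

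The low dose was then compared with DMSO, to see which genes remained away from the unstimulated level. The same darolutamide libraries enter this comparison and the main one. Of 18204 genes, 118 (0.648%) were called, 86 (0.472%) above and 32 (0.176%) below DMSO. Beside CHRNA2, ZBTB16 was 1.19 above DMSO on the log2 scale (adjusted p = 4.41e-06), ST6GALNAC1 0.76 (adjusted p = 0.00634) and HPGD 0.67 (adjusted p = 5.57e-09). Among genes above the median expression, C1orf116 was at 273 to 285 CPM against 148 to 170 with DMSO (log2 fold change 0.78, standard error 0.0300, adjusted p = 8.70e-28). PEX10, a peroxisome biogenesis factor, was 0.55 above DMSO (standard error 0.103, adjusted p = 0.000843), with 53.4, 35.9, 39.2, 38.8 and 41.4 CPM against 24.8 to 32.7. LAMA3, a laminin chain of epithelial basement membranes, was 0.47 above (standard error 0.0485, adjusted p = 1.36e-09) and FSTL1 0.44 (standard error 0.0791, adjusted p = 0.000352). Below DMSO lay CA10 at -0.37 (adjusted p = 0.000406), PRKG1, a cyclic GMP-dependent kinase, at -0.33 (adjusted p = 0.0248) and LRRC31 at -0.30 (adjusted p = 4.18e-05). C8orf4 and ACTR6 were at -0.27 and -0.24 (adjusted p = 0.00119 and 0.00203). The count was 195 against DMSO replicates 1 to 5 and 43 against replicates 6 and 7, the only higher numbers of this group. These subsets differ in size, so their counts are not directly comparable.

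FN1, which encodes the matrix protein fibronectin (chromosome 2, 215360440 to 215436073), was called with the low dose against DMSO and not against R1881, as were ACTR6 and PRKG1. It read 493, 532, 501, 538 and 496 CPM with 500 nM, against 497, 517 and 587 with R1881 and 327, 365 and 393 with DMSO. The darolutamide libraries lay within or just below the R1881 range and above all DMSO libraries. The log2 fold change was -0.04 against R1881 (standard error 0.0420, adjusted p = 0.782) and 0.50 against DMSO (standard error 0.0446, adjusted p = 8.80e-12). With 2 µM, FN1 read 364 to 411 CPM, and this was lower than with 500 nM (log2 fold change -0.42, standard error 0.0486, adjusted p = 5.56e-08).

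Between the doses, 47 genes (0.258%) differed at 22 h, 39 lower (0.214%) and 8 higher (0.0439%) with 2 µM than with 500 nM. C1orf116 had the smallest adjusted p, with 169 to 175 CPM at the high dose (log2 fold change -0.69, standard error 0.0328, adjusted p = 2.96e-23). ENDOD1 was 0.41 lower on the log2 scale (log2 fold change -0.41, standard error 0.0510, adjusted p = 4.17e-07), and ARHGEF26, a guanine nucleotide exchange factor, 0.39 (log2 fold change -0.39, standard error 0.0354, adjusted p = 1.61e-11). ARHGEF26 read 79.5, 91.4, 78.6, 85.4 and 80.3 CPM with 500 nM and 60.8 to 64.7 with 2 µM. For FKBP5 the difference was -0.26 (adjusted p = 0.000874) and for HPGD -0.57 (adjusted p = 7.48e-06). KLK2, KLK3 and KLK4 had differences of -0.34, -0.30 and -0.42 that were not called (adjusted p = 0.766, 0.474 and 0.677). Among the genes that rose, CA10 was called higher with 2 µM by 0.38 (adjusted p = 0.00175), and PCDH19 and GRIA2, at 0.12 and -0.06, were not (adjusted p = 0.720 and 1.0). The count was 11 when only these groups were fitted, and 31 without replicate 5 of the high dose. Against R1881, the high dose itself called 1906 genes (10.5%), of which 995 were lower (5.47%).

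The effect of 500 nM was also compared with that at 8 h, each against the R1881 libraries of its own time. At 8 h, 114 genes (0.626%) were called. The 22 h effect minus the 8 h effect was called for 133 genes (0.731%), of which 102 (0.560%) were negative. HPGD moved by -1.83 at 22 h and -0.80 at 8 h, a difference of -1.03 (standard error 0.0949, adjusted p = 1.35e-11). The differences were -0.68 for HOMER2 (adjusted p = 4.45e-13), -0.66 for FKBP5 (adjusted p = 1.61e-12), -0.62 for PMEPA1 (adjusted p = 5.87e-14), -0.53 for LINC01443 (adjusted p = 1.17e-11) and -0.53 for SGK1 (adjusted p = 3.82e-08). C1orf116 was already at -0.70 at 8 h and differed by -0.20 (adjusted p = 0.00278). KLK2 and KLK3, at -1.38 and -0.89 at 8 h, had differences of -0.58 and -0.37 that were not called (adjusted p = 0.131 and 0.218). MCM4, MCM3 and GINS2 were at 0.04, 0.04 and 0.07 at 8 h, and their differences of -0.23, -0.20 and -0.33 were called (adjusted p = 0.000366, 0.00262 and 0.00373). GRIA2 was at 0.09 at 8 h (difference 0.50, adjusted p = 9.01e-06) and LRRC31 at 0.06 (difference 0.42, adjusted p = 4.03e-05).

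**Figure D5:**
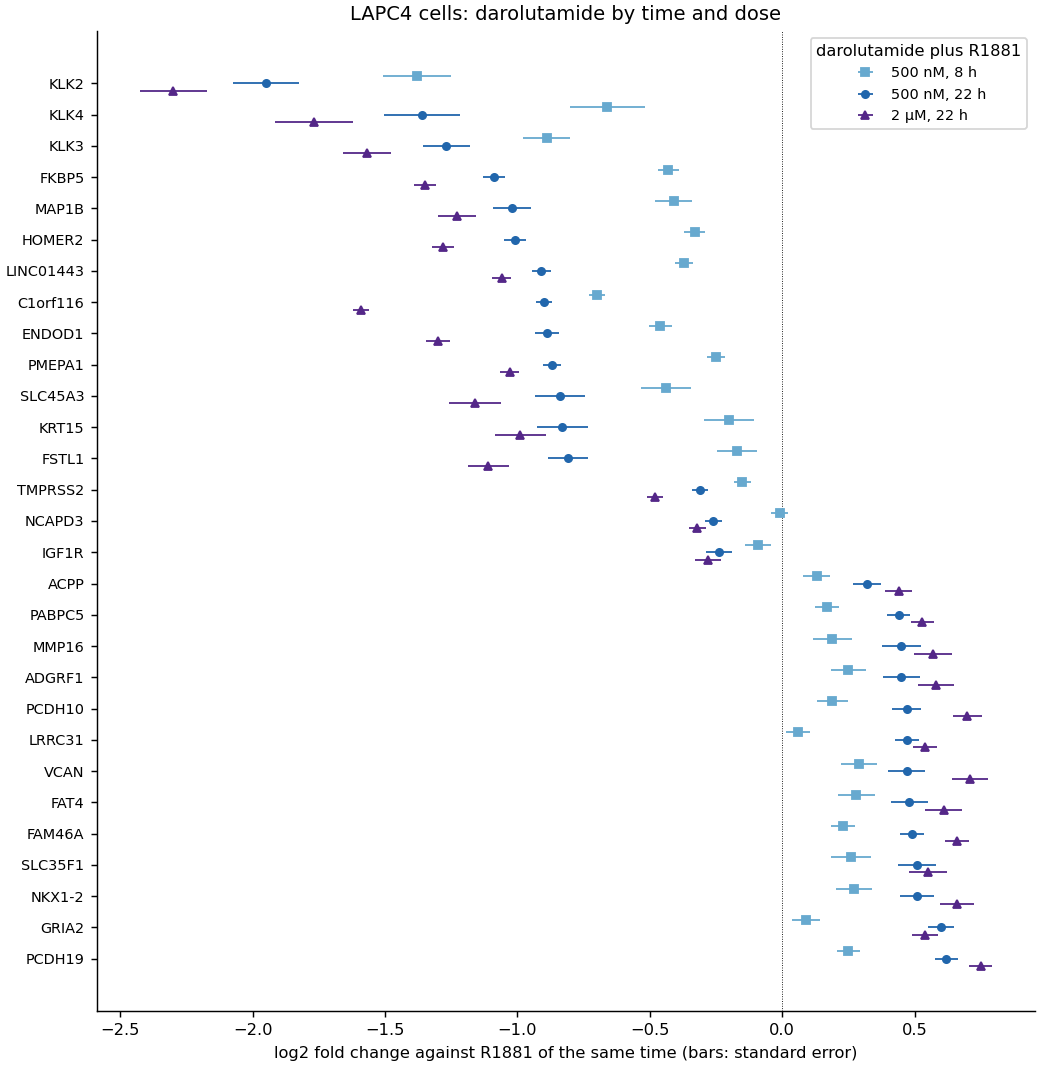
log2 fold changes against R1881 of the same time (x axis, bars are standard errors) for 500 nM at 8 h, 500 nM at 22 h and 2 µM at 22 h, with 1 line for each of the 24 genes of the largest falls and rises and 5 further genes named from a fixed list. The 22 h comparisons share the R1881 libraries, and C1orf116 moves from -0.70 through -0.90 to -1.59.

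In VCaP cells the same dose called 9063 of 16578 genes (54.7%) at 22 h, and the effect differed between the lines for 7539 (45.5%). The lines differ in much besides treatment, and the VCaP groups are separate libraries. FKBP5 fell by 1.09 in LAPC4 and by 2.62 in VCaP cells (difference 1.54, standard error 0.0681, adjusted p = 1.03e-38). TMPRSS2 fell by 0.31 and 1.61 (difference 1.31, adjusted p = 2.32e-49), and NCAPD3 by 0.26 and 1.89 (difference 1.63, adjusted p = 1.43e-47). The reverse order held for KLK2, which fell by 1.95 in LAPC4 and by 0.61 in VCaP cells (difference -1.34, adjusted p = 1.20e-20), and for PMEPA1, which fell by 0.87 and 0.07 (difference -0.80, adjusted p = 3.80e-36). For KLK3, with falls of 1.27 and 1.51, the difference was not called (0.25, adjusted p = 0.0557). Opposite directions were seen for MCM4, at -0.18 and 1.4 (difference -1.58, adjusted p = 6.24e-54), for ZNF385B, a zinc finger protein, at -0.60 and 1.57 (difference -2.17, adjusted p = 1.12e-51), and for ACPP, at 0.32 and -0.44 (difference 0.76, adjusted p = 4.38e-16). PDCD4, a translation repressor, was at 0.10 in LAPC4, where it was not called (adjusted p = 0.0683), and at -1.82 in VCaP cells. MYOF, a membrane repair protein, was at 0.13 (adjusted p = 0.0377) and -2.88, and its LAPC4 value was called in 11 of 25 alternative settings.

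The promoters of the called genes were searched for letters of the androgen receptor element, on both strands of the 250 bases before the RefSeq start. The half-site AGAACA, or TGTTCT on the other strand, was present in 31 of 428 genes called lower (7.24%), 28 of 372 called higher (7.53%) and 807 of all 10699 tested genes with a window (7.54%). The inverted repeat in at least 10 of its 12 fixed letters was present in 5 genes called lower (1.17%), 1 called higher (0.269%) and 49 of all (0.458%). Every repeat contains at least part of the half-sites, so the searches overlap. The matches of the other called genes are shown because they name which responsive genes carry these letters close to their start, with the letters of the match in capitals.
RNF41: AGAACATAGAGTTCT
UCK2: AGAACAGCCTGTTTC
POTEH-AS1: AGAGCATCTTGTTCT
DIEXF: GGAACCGGATGTTCT
SLITRK6: ATAACACAATGTACT
RNF41, a ubiquitin ligase, with 11 letters, fell by 0.18 on the log2 scale (adjusted p = 3.32e-06). UCK2, a uridine-cytidine kinase, with 10 letters, read 35.3, 35.9, 37.4, 33.1 and 34.3 CPM with 500 nM, against 43.8, 45.6 and 48.7 with R1881, and fell by 0.38 (adjusted p = 1.22e-13). POTEH-AS1, with 11 letters, read 0.564, 1.19, 0.880, 0.506 and 0.835 CPM, against 2.31, 2.73 and 3.14, and belongs to a family of near-identical copies. DIEXF, with 10 letters, fell by 0.16 (adjusted p = 0.0247), and SLITRK6, a neuronal membrane protein with 10 letters, rose by 0.52 (adjusted p = 3.39e-07). Of the 29 genes with the largest changes or named from the fixed list, 23 had a window, and KLK3 was the only one with the half-site or the repeat within it.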

How the data were processed

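Messenger RNA of LAPC4 cells was sequenced by the authors with a stranded kit. The submitters' processing notes name bcl2fastq 2.17, the build GRCh38, STAR and featureCounts. The deposited values are raw read counts per gene without normalization, in 1 table with a column for each library. The gene annotation and the strand setting are not given in the sources used here, so counts of antisense, overlapping and near-identical genes are uncertain. The methods state 5 biological replicates for a condition, the R1881 group holds 10 libraries, and how its numbers 6 to 10 were obtained is not given in the sources used here. The p values measure the spread between these libraries.

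Analysis was done in R 4.3.3. A gene was kept where 4 or more of the 57 LAPC4 libraries had 10 reads or more (18204 of 58684), and library sizes were scaled by TMM. All 8 LAPC4 groups were fitted together in edgeR 4.0.16 (glmQLFit, glmQLFTest), with Benjamini-Hochberg adjustment over all genes tested. Genes with an adjusted p below 0.05 were called. The standard error of a log2 fold change was derived from its quasi-likelihood F, as its size over the root of F. The effects at 8 and 22 h, and in both cell lines (57 and 55 libraries, 16578 genes), were compared by interaction contrasts. Values are CPM with TMM factors, and log2 CPM used a prior count of 2. The test was checked on simulated counts. These had no differences in GC slope between libraries or between replicate numbers, so the check does not cover such differences.

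Named genes are the 12 largest falls and rises above the median expression with the same direction against R1881 replicates 1 to 5 and 6 to 10, genes of a fixed list, the 3 smallest adjusted p of each gene list, and the 5 leading genes of each further comparison. The fixed list holds KLK2, KLK3, TMPRSS2 and FKBP5, which the text of the study names, and ACPP, PMEPA1, IGF1R and NCAPD3. Other members of the lists, and CHRNA2, HPGD in the time comparison, UCK2, RNF41, POTEH-AS1, DIEXF and SLITRK6, were named after their values were seen. Some members of the lists are not reported here. The groups, the gene lists and this rule were chosen with earlier results of these data known. Positions come from GENCODE 44 and promoter windows from RefSeq (GRCh38.p14).

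Replicate numbers are shared between the groups, and a fit with the number as a block was an alternative. The others were DESeq2 1.42.0, other filters, the compared groups alone, subsets of control libraries, a term for replicate numbers above 5, the GC slope of each library as a covariate (84% of tested genes had a GC value), and leaving out each library. Within the 2 groups of the main comparison, no pair of libraries agreed within sampling noise.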

Additional observations from a re-analysis of the deposited data

Results flagged for a closer look

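Of 148 groups of values tested for a sample apart from the rest of its group, 5 were found, where chance gives about 1 in 20 groups. HOMER2 read 55.1 CPM in R1881 replicate 3, above the 47.6 to 51.5 of the others. MCM3 at 129 CPM (others 137 to 138) and CCND1 at 206 CPM (others 180 to 186) both stood apart in replicate 1 with 500 nM darolutamide, the library with the flattest GC slope of its group. Its part in these values was not tested. CCNG2 read 173 CPM in R1881 replicate 9 (others 149 to 161), and TBC1D1, a GTPase activator, read 96.4 CPM in R1881 replicate 5 (others 101 to 106).

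The effect of 500 nM differed between 22 and 8 h, by the test of that difference, for further named genes. Values are the log2 fold change at 22 h minus that at 8 h. HPGD (-1.03) and ST6GALNAC1 (-1.13) led, followed by HOMER2 (-0.68), FKBP5 (-0.66), FSTL1 (-0.64), KRT15 (-0.63), PMEPA1 (-0.62), MAP1B (-0.61), LINC01443 (-0.53) and SGK1 (-0.53). STEAP1 (-0.49), UGT2B28 (-0.45), ENDOD1 (-0.43), RAB3B (-0.37), UGT2B11 (-0.36), GINS2 (-0.33), ZNF385B (-0.32), ARHGEF26 (-0.29), NCAPD3 (-0.25) and MCM4 (-0.23) followed. The differences were smaller for UAP1 (-0.21), C1orf116 (-0.20), MCM3 (-0.20), TBC1D1 (-0.20) and TMPRSS2 (-0.16). Larger rises at 22 h were found for GRIA2 (0.50), LRRC31 (0.42), PCDH19 (0.38), PABPC5 (0.27) and FAM46A (0.26).

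Between the cell lines, LAPC4 minus VCaP at 22 h, the effect differed for MYOF (3.02), PDCD4 (1.93), NCAPD3 (1.63), FKBP5 (1.54), TMPRSS2 (1.31), ACPP (0.76) and IGF1R (0.41). It differed in the other direction for ZNF385B (-2.17), MCM4 (-1.58), KLK2 (-1.34) and PMEPA1 (-0.80).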

How the results depend on the processing

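For the 1072 genes called in the main comparison, the counts were 1024 with DESeq2, 781 without a filter, 1055 with filterByExpr and 842 with only these groups, and 896 to 1061 when each library was left out. These counts are not all of the same genes. Of the 1072, 1003 were called again with DESeq2, 766 without a filter, 1032 with filterByExpr and 811 with only these groups. The GC slope as a covariate gave 2251, with the replicate block 2780, and an absolute log2 fold change above 1 left 39. Against DMSO (118 genes) the counts were 69 without a filter, 59 with only the compared groups, 195 and 43 with control replicates 1 to 5 and 6 and above, 254 with a term for numbers above 5, 413 with the GC slope, and 91 to 99 without single darolutamide libraries. Between doses (47) they were 11 with only the compared groups, 181 with the GC slope, and 31 to 52 without single libraries. For 22 h minus 8 h (133) they were 67 without a filter, 460 with the GC slope, and 89 to 132 without single libraries. The cell line difference (7539) stayed within 6296 and 7763.

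Deviations of same-numbered libraries correlated at -0.341, 0.783, -0.249, 0.528 and 0.475 for numbers 1 to 5, and no darolutamide library correlated best with its own number. The best matches were all R1881 replicate 7 or 9, whose GC slopes of -0.3166 and -0.6933 are the ends of their group. This check may follow GC content and cannot decide whether the numbers pair the libraries. With the replicate block, 984 genes were called in the main comparison, 672 lower and 312 higher, so that 68.3% of calls were lower against 54.5%. Only 623 of the 1072 genes called without the block were among them. The block gave 70 against DMSO, 9 between doses and 48 for 22 h minus 8 h, and with block and GC slope together 795, 233 and 406.

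For the genes that the naming rule took for the main comparison or from the lists, 1505 recomputed values kept direction and call. A further 20 values, of ACAT2, SPCS3, YARS, CCNG2, SAT1, DUSP4, IFI44 and LUM, kept the direction and lost the call under 1 to 5 settings each, and with the block DUSP4 was at 0.08 (adjusted p = 0.125). Among genes named for other comparisons, MYOF was called in 11 and C8orf4 in 15 of 25 alternatives of the main one. Other list members named in the text are not in these counts, and some of their calls were lost. STEAP4 and ADAMTS1 were not called as rises against R1881 replicates 1 to 5. Counts of list members under other settings were chosen after seeing the data. Depth limits low genes such as KLK15 and LUM, and the cause of the rise in calls with the GC slope was not tested.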
